A study of Homo sapiens with 4 samples.

Results

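Interferon-stimulated genes are the genes that cells switch on when interferon binds its receptors. They were followed here as a set of 49 genes, chosen by name and read from every non-control probe that carried one of those gene names on the arrays. All 49 were among the 29123 gene names on the array, and all 49 were among the 27196 genes that passed the filter on dim probes. The cells were A2780s, an established human epithelial ovarian cancer (EOC) line. Each of 4 two-color arrays held RNA of 1 KO clone, 2 of the GALNT3 KO and 2 of the GALNT3/T6 KO, beside RNA of mock-transfected A2780s cells (Ctrl). GALNT3 and GALNT6 encode enzymes that start mucin-type O-glycosylation. The GALNT3 KO was obtained by CRISPR/Cas9 with a repair plasmid that carried puromycin resistance, later excised with Cre. The double KO clones are, by the labels, GALNT3 KO clones that also received an shRNA against GALNT6, which the study's methods describe as a lentiviral pLKO.1-puro vector selected with puromycin. All KO clones therefore share the CRISPR step. Between the groups, the transduction with its selection cannot be told apart from an effect of the shRNA on GALNT6. The methods also describe control clones made with a scramble sequence in the same vector. Whether such a clone served as Ctrl on the arrays is not stated there, so the same limit may hold against Ctrl. Each replicate is 1 clone, and the labels do not say which GALNT3 KO clone each double KO clone came from.

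Values are log2 ratios of the KO channel (Cy5) over the Ctrl channel (Cy3), so that 1 unit is a doubling, and SE is the standard error from limma. A gene was called where its p, adjusted by Benjamini-Hochberg over all 27196 genes, did not exceed 0.05. No dyes were swapped. No Ctrl sample was hybridized against Ctrl, so the tests against Ctrl leave out its own spread. The number of arrays limits the precision. In bulk RNA, fewer cells of a type and less RNA per cell cannot be told apart.

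The targeted genes were read first. On the GALNT3 KO arrays neither channel of GALNT3 was well above background, which gives no check there. On the other arrays its log2 ratio was 4.80 in clone 1 and 5.08 in clone 2, above Ctrl, which goes against the label. The KO channels of the 2 groups differed at least 53.5-fold in GALNT3 (adjusted p of the ratio difference 0.000413). That group is therefore named below by its label. GALNT6 stood at -0.47 and -0.38 in GALNT3 KO, and at -0.66 and -0.69 in the clones labelled GALNT3/T6 KO. It was called lower than Ctrl in both groups (adjusted p = 0.0445 and 0.00334), and the difference of -0.25 between them did not pass the test (adjusted p = 0.212). Lineage markers were also read in the clones labelled GALNT3/T6 KO, where 24.8% of all genes were called higher and 23.1% lower. Of 10 epithelial ovarian carcinoma markers, 7 were higher and 1 was lower than in Ctrl, with KRT18 at 5.68, KRT19 at 4.81 and VIM at -2.36. The summed KO signal of the 10 markers was 18.4 to 18.7 log2 units in GALNT3 KO and 19.97 to 19.99 in the clones labelled GALNT3/T6 KO. Of the leukocyte markers PTPRC, CD3E and CD14, none was higher and CD3E was lower (-0.36), and their summed signal was 11.2 to 11.5 in GALNT3 KO and 11.2 in both clones labelled GALNT3/T6 KO. LYZ did not pass the filter. Of 4 fibroblast markers, PDGFRB (3.44) and COL1A1 (1.98) were higher, COL1A2 (-0.32) was lower after reading 0.62 in GALNT3 KO, and the summed signal was 10.6 to 10.8 in GALNT3 KO and 12.7 to 13.6 in the clones labelled GALNT3/T6 KO. Of 2 endothelial markers measured, VWF was higher (1.32), and the sum was 9.14 to 9.61 against 9.53 to 10.0. The part of these shifts in the results below was not tested.

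Interferons are secreted proteins that signal through receptors and JAK kinases to transcription factors that include STAT2 and IRF9. These factors bind a sequence called the interferon-stimulated response element (ISRE) near the start of target genes. The targets include sensors of foreign RNA, such as DDX58 (RIG-I) and IFIH1 (MDA5), which can induce interferon again, and effectors that block virus entry, translation or replication. Many tumor lines keep part of this program on without infection.

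The response element can be seen in the promoters of members that moved in different ways. RefSeq promoters of GRCh38.p14 were found for 40 of the 49 members, DDX58 under its current symbol RIGI. No entry was found for IFIT2, MX2, OAS2, OASL, IFITM2, IRF7, USP18, TRIM22 and GBP2. The ISRE core was searched as GAAANNGAAA, or TTTCNNTTTC on the other strand, in the 250 bases before each start. It occurred in 28 of the 53 promoter windows of members (52.8%), against 3.02% of all 35116 windows. The GAS letters TTCNNNGAA, which read the same on both strands, occurred in 13 member windows (24.5%), against 6.57% of all windows. The 170 bases before the start are shown 5′ to 3′ on the gene's strand for 7 members, with matches to the ISRE core in capitals, where neighbouring matches can overlap. IFIT1 and IFIT5 were lower and IFIT3 and IFIH1 higher in the clones labelled GALNT3/T6 KO, ISG15 was lower in GALNT3 KO and higher on those arrays, IFI44L was the member raised most in GALNT3 KO, and BST2 differed most between the groups.
IFIT1 (chr10:89392453-89392622, plus strand): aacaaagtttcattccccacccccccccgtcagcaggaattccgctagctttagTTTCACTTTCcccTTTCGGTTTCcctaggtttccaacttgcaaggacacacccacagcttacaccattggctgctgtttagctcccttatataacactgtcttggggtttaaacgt
IFIT5 (chr10:89414398-89414567, plus strand): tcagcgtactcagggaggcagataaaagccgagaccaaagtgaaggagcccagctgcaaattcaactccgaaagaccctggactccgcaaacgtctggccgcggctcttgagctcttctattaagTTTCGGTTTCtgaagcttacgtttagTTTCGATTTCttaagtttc
IFIT3 (chr10:89327827-89327996, plus strand): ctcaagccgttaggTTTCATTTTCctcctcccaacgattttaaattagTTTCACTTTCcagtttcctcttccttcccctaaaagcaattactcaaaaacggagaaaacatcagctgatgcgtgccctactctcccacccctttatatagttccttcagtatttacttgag
IFIH1 (chr2:162318685-162318854, minus strand): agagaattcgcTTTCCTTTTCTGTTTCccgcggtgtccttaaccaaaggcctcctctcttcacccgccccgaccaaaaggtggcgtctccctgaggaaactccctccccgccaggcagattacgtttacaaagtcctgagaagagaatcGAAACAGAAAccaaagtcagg
ISG15 (chr1:1013327-1013496, plus strand): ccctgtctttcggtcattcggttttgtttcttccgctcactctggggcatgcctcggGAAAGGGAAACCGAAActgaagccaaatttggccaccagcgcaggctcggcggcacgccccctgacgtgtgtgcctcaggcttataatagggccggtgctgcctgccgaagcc
IFI44L (chr1:78620278-78620447, plus strand): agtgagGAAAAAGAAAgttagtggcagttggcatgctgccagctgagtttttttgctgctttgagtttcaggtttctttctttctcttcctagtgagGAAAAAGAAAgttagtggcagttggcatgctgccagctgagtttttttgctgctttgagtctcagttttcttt
BST2 (chr19:17405631-17405800, minus strand): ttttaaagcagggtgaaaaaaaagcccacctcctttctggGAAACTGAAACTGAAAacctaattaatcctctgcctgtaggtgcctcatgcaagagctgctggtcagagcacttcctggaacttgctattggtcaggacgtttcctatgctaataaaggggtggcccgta

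Each of these windows held 2 matches, except that of IFIH1 with 3. In IFIT1 the matches ended 106 and 93 bases before the start and in IFIT5 35 and 9 bases before it. Of the matched members, the core was found in 20 of 32 that were called higher in the clones labelled GALNT3/T6 KO, in 2 of 3 called lower (IFIT1 and IFIT5, not ADAR) and in 2 of 5 not called. Members called higher without these letters in the window included DDX58, IRF9, SAMD9L, STAT2 and SP110. A match describes letters only and is no evidence that a factor bound there.

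In the clones labelled GALNT3/T6 KO, 39 of the 49 members were called higher than Ctrl and 3 lower, where 24.8% of all genes tested were called higher and 23.1% lower. In GALNT3 KO, 3 members were called higher and 9 lower, against 4.79% and 6.44% of all genes. No array held both KO groups, so they were compared by the difference of their log2 ratios over Ctrl. By this difference, 34 members were higher in the clones labelled GALNT3/T6 KO than in GALNT3 KO and 3 were lower. Of all genes, 11.9% were higher and 11.9% lower. The median log2 ratio of the members was 1.13 in the clones labelled GALNT3/T6 KO and 0.02 in GALNT3 KO, beside 0.03 and 0.02 over all genes. Both sets of ratios are taken over Ctrl RNA and may share it. In the plot by array, the members form no single block: their means spread from -1.36 to 4.53 in the clones labelled GALNT3/T6 KO, and none of the 9 called lower in GALNT3 KO is among the 3 called lower on the other arrays.

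**Figure D1:**
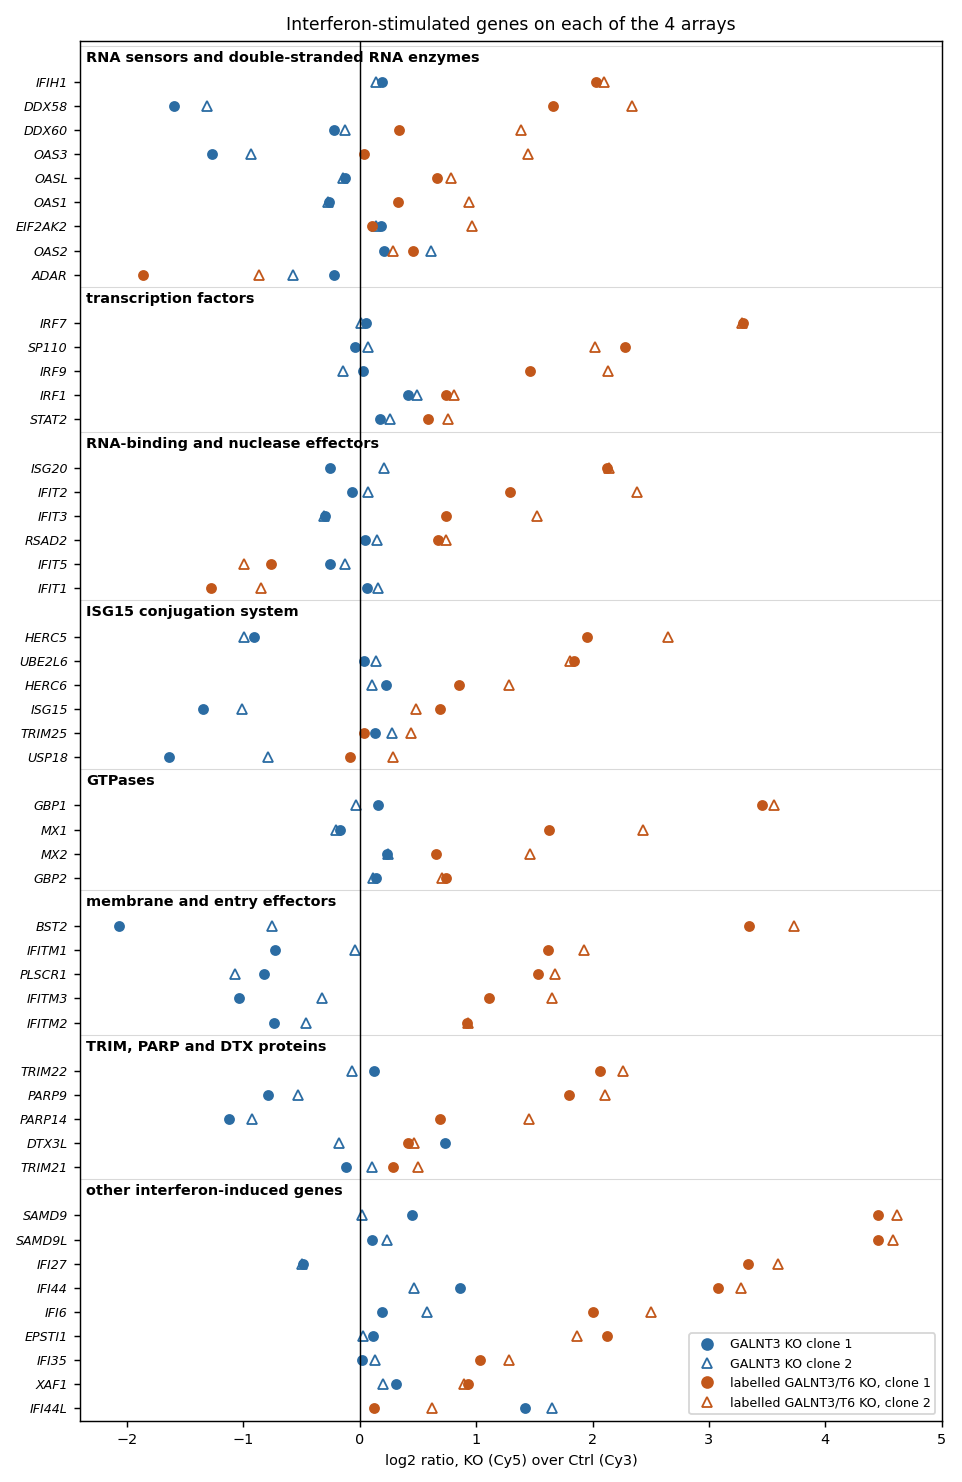
Log2 ratio of KO over Ctrl (x axis) for each of the 49 genes (rows, by role) on each of the 4 arrays, with circles for clone 1 and triangles for clone 2 of GALNT3 KO (blue) and of the group labelled GALNT3/T6 KO (orange). SAMD9, SAMD9L and BST2 lie farthest to the right in orange, IFIT1, IFIT5 and ADAR lie left of 0 in orange, and BST2, DDX58 and USP18 lie farthest to the left in blue.

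Of 9 sensors of RNA and enzymes that act on double-stranded RNA, 1 was called in GALNT3 KO, lower than Ctrl, and 5 were called higher and 1 lower in the clones labelled GALNT3/T6 KO. DDX58, the cytoplasmic RNA helicase that recognizes viral RNA ends, stood at -1.59 and -1.32 in the 2 GALNT3 KO clones and at 1.66 and 2.34 in the clones labelled GALNT3/T6 KO. It was lower than Ctrl in both GALNT3 KO clones and higher in both others, with no overlap. The group difference was 3.45 (SE 0.27, 10.96-fold, adjusted p = 0.0019). IFIH1, the related helicase that binds long double-stranded RNA, was 0.19 and 0.14 in GALNT3 KO, near Ctrl. In the clones labelled GALNT3/T6 KO it was 2.03 and 2.10, and the groups differed by 1.90 (SE 0.11, adjusted p = 0.00102). Of both helicases, only DDX58 passed the test in GALNT3 KO (-1.45, SE 0.19, adjusted p = 0.0267, against 0.209 for IFIH1), and whether the helicases differ from each other was not tested.

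DDX60, a helicase thought to assist DDX58, showed -0.22 and -0.12 in GALNT3 KO and 0.34 and 1.39 in the clones labelled GALNT3/T6 KO. Its clones of the second group lay 1.05 apart, and it was called higher than Ctrl there (0.86, SE 0.26, adjusted p = 0.0465). That call was lost with median centring, without either GALNT3 KO clone and without replicate 2 of its own group, where DDX60 read 0.34. The group difference of 1.04 did not pass the test (adjusted p = 0.116). The oligoadenylate synthetases make the messenger that activates RNase L. OAS3 was the one with the widest clone spread: it read -1.27 and -0.93 in GALNT3 KO, and 0.03 in clone 1 but 1.45 in clone 2 in the clones labelled GALNT3/T6 KO. On this brightest probe the groups did not overlap, yet no OAS3 comparison passed the test (adjusted p = 0.1 in GALNT3 KO, 0.139 on the other arrays and 0.0586 for the difference). The other OAS3 probe read -0.17 and -0.25 in GALNT3 KO, then -0.25 and 0.18, overlapping between groups. OAS1 read -0.26 and -0.27, then 0.33 and 0.93, and was called higher than Ctrl in the clones labelled GALNT3/T6 KO (0.63, SE 0.16, adjusted p = 0.0304). For OAS2 the 4 ratios were 0.21, 0.61, 0.46 and 0.29, overlapping between groups. OASL, a relative without the synthetase activity that enhances DDX58 signaling, read -0.13 and -0.14, then 0.67 and 0.78. Its group difference of 0.86 passed the test (SE 0.12, adjusted p = 0.00887).

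The remaining members of that role are regulators of the response to double-stranded RNA. EIF2AK2 (PKR), the kinase that halts translation, read 0.18 and 0.14 in GALNT3 KO, then 0.10 and 0.97 in the 2 clones labelled GALNT3/T6 KO. These overlap, and no test was passed. ADAR, the deaminase that edits double-stranded RNA and keeps cellular RNA from being sensed, was -0.22 and -0.58 in GALNT3 KO and -1.86 and -0.86 in the clones labelled GALNT3/T6 KO. It was lower than Ctrl on all 4 arrays and called on those labelled GALNT3/T6 KO (-1.36, SE 0.26, adjusted p = 0.0129). The difference between the groups was -0.97 (SE 0.36, adjusted p = 0.139). The second ADAR probe read -0.51 and -0.12 there, in the same direction and smaller by 1.05 in the mean.

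The 5 transcription factors were all higher than Ctrl in the clones labelled GALNT3/T6 KO, and 1 of them, IRF1, also in GALNT3 KO. IRF7, which drives transcription of interferon genes, was 0.05 and 0.01 in GALNT3 KO and 3.29 in both other clones. The difference was 3.26 (SE 0.11, 9.55-fold, adjusted p = 0.000413). This value comes from the brighter of its 2 probes, and the dimmer one gave 0.00 and 0.98 in the clones labelled GALNT3/T6 KO. IRF9, the DNA-binding partner of STAT2, read 0.03 and -0.14 against 1.46 and 2.13. The groups differed by 1.85 (SE 0.25, adjusted p = 0.00908) on this brighter probe. The second IRF9 probe gave 0.03 and 0.33 in GALNT3 KO and 0.23 and 0.21 in the clones labelled GALNT3/T6 KO, overlapping between groups.

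STAT2, the partner of IRF9, moved less. Its ratios were 0.17 and 0.26 in GALNT3 KO and 0.59 and 0.76 in the clones labelled GALNT3/T6 KO, the last 2 called higher than Ctrl (0.67, SE 0.09, adjusted p = 0.00459). The groups did not overlap, and their difference of 0.45 missed the threshold (SE 0.13, adjusted p = 0.0658). IRF1, a factor induced early by interferon gamma, was higher than Ctrl on all 4 arrays, at 0.41 and 0.49 and then 0.74 and 0.81. It was called in GALNT3 KO (0.45, SE 0.08, adjusted p = 0.042) and in the clones labelled GALNT3/T6 KO (0.77, adjusted p = 0.0023). SP110, a nuclear body protein, read -0.04 and 0.08 against 2.28 and 2.02, a difference of 2.13 (SE 0.14, adjusted p = 0.00134).

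Effectors that bind RNA diverged within the IFIT family, whose genes lie in a row on chromosome 10 and whose proteins bind viral RNA and curb its translation. IFIT1, which recognizes RNA with an uncapped or incompletely methylated end, was 0.07 and 0.16 in GALNT3 KO and -1.28 and -0.85 in the clones labelled GALNT3/T6 KO. It fell below Ctrl in both of the latter clones (-1.06, SE 0.13, adjusted p = 0.00346) and below GALNT3 KO by 1.18 (SE 0.18, adjusted p = 0.0128). IFIT5 fell too, with -0.76 and -0.998 against -0.26 and -0.13, and its second probe gave -1.20 and -1.29. IFIT2 went the other way: -0.07 and 0.07 in GALNT3 KO, 1.29 and 2.38 in the clones labelled GALNT3/T6 KO, where its clones lay 1.09 apart. Its difference was 1.83 (SE 0.37, adjusted p = 0.0284). The second IFIT2 probe read -0.53 and -0.57 in GALNT3 KO, below Ctrl, then 0.82 and 1.54. IFIT3, which stabilizes IFIT1 in a complex, rose with IFIT2, by 1.44 between the groups (SE 0.28, adjusted p = 0.0248). On hg19 the probes lie in the order IFIT2 (91068397 to 91068456), IFIT3 (91099362 to 91099421), IFIT1 (91163438 to 91163497) and IFIT5 (91178343 to 91178402), so the 2 that rose come first and the 2 that fell come after. The exonuclease ISG20 rose by 2.16 between the groups (SE 0.19). RSAD2 (viperin), which makes a chain-terminating nucleotide, rose by 0.62 (SE 0.12) on its brightest probe, while the other probe stood at 1.92 in the clones labelled GALNT3/T6 KO against 0.71.

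The ISG15 conjugation system attaches the ubiquitin-like protein ISG15 to other proteins. ISG15 was -1.35 and -1.01 in GALNT3 KO and 0.69 and 0.49 in the clones labelled GALNT3/T6 KO. It was called lower than Ctrl in the first group (-1.18, SE 0.12, adjusted p = 0.0195) and higher in the second (0.59, SE 0.12, adjusted p = 0.0163), and the difference was 1.77 (SE 0.17, adjusted p = 0.00339). The main ligase HERC5 followed the same course: -0.91 and -0.997, then 1.96 and 2.65. Its difference was 3.26 (SE 0.25, 9.55-fold, adjusted p = 0.002). USP18, the protease that removes ISG15 and restrains interferon receptor signaling, read -1.64 and -0.79 in GALNT3 KO and -0.09 and 0.28 in the other clones. It was called lower in GALNT3 KO (-1.21, SE 0.23, adjusted p = 0.0445) and was not distinguished from Ctrl in the clones labelled GALNT3/T6 KO (0.10, SE 0.23, adjusted p = 0.742). UBE2L6, the conjugating enzyme, rose by 1.73 and HERC6 by 0.90 between the groups. TRIM25, a ubiquitin ligase acting on DDX58, read 0.13 and 0.28 against 0.04 and 0.44, overlapping between groups.

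Among the GTPases, the largest rise was that of GBP1, a guanylate-binding protein induced strongly by interferon gamma. Its ratios of 0.16 and -0.03 in GALNT3 KO stood against 3.46 and 3.56 in the clones labelled GALNT3/T6 KO. The groups differed by 3.44 (SE 0.13, 10.9-fold, adjusted p = 0.000447), and the other GBP1 probe stood at 3.83 on the latter arrays. GBP2, its neighbour on chromosome 1, rose less, by 0.60 (SE 0.11, adjusted p = 0.0212). MX1, which traps viral nucleocapsids, rose by 2.21 (SE 0.29, adjusted p = 0.00791), and MX2, at 0.82 (SE 0.29), did not pass the test between the groups but was called higher than Ctrl in the clones labelled GALNT3/T6 KO (1.06, adjusted p = 0.0133).

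All 5 membrane effectors were called higher than Ctrl in the clones labelled GALNT3/T6 KO and differed between the groups by the test. In GALNT3 KO all 5 read below 0 in both clones, and 2 of them, PLSCR1 and IFITM2, were called lower. BST2 (tetherin), which holds budding virus at the cell surface, had the largest difference in log2 ratio of all 49 members, while its Ctrl signal was also 2.02 higher beside the clones labelled GALNT3/T6 KO and, within the KO channel alone, IFI27 differed more (8.43 against 6.97). It read -2.06 and -0.76 in GALNT3 KO, 1.31 apart, and 3.34 and 3.73 in the clones labelled GALNT3/T6 KO. The difference was 4.95 (SE 0.46, 30.9-fold, adjusted p = 0.00312), although BST2 was not called in GALNT3 KO (-1.41, SE 0.32, adjusted p = 0.0597). PLSCR1, a lipid scramblase, was -0.83 and -1.07 and then 1.53 and 1.68, called in both groups (-0.95, adjusted p = 0.0211, and 1.60, adjusted p = 0.00054). The IFITM proteins block fusion of virus with the cell. IFITM2 read -0.74 and -0.46 in GALNT3 KO, where it was called lower (-0.60, SE 0.10, adjusted p = 0.0381), and 0.92 and 0.93 on the other arrays. IFITM1 and IFITM3 were not called in GALNT3 KO (-0.38 and -0.68, adjusted p = 0.217 and 0.107), and rose by 2.16 and 2.06 between the groups. IFITM2 and IFITM3 are close paralogs, and their probes may share signal.

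PARP9 and PARP14, poly-ADP-ribose polymerase family members that modulate STAT signaling, were both called lower in GALNT3 KO. PARP9 stood at -0.79 and -0.53 and then at 1.79 and 2.11, a difference of 2.61 (SE 0.17, 6.12-fold, adjusted p = 0.00128). PARP14 stood at -1.13 and -0.92 and then at 0.69 and 1.46. Its KO channel was well above background on 1 of the 2 GALNT3 KO arrays. The other 3 PARP14 probes did not follow, with means of 0.19, -0.02 and -0.21 in GALNT3 KO and 0.27, -0.30 and 0.28 in the clones labelled GALNT3/T6 KO. DTX3L, the ligase that pairs with PARP9, was not called in any comparison on its brightest probe (0.74 and -0.17, then 0.41 and 0.47), while its dimmer probe read 1.78 and 1.85 in the clones labelled GALNT3/T6 KO. TRIM22, a nuclear restriction factor, rose by 2.14 between the groups (SE 0.14), and the antibody receptor TRIM21 did not pass that test (0.40, SE 0.15, adjusted p = 0.136).

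Of the 9 other interferon-induced genes, 8 were called higher in the clones labelled GALNT3/T6 KO. SAMD9 and SAMD9L, neighbours on chromosome 7 that encode restriction factors acting on translation, stood apart. SAMD9 was 0.45 and 0.02 in GALNT3 KO and 4.45 and 4.61 in the clones labelled GALNT3/T6 KO (difference 4.30, SE 0.19, 19.7-fold, adjusted p = 0.000528). SAMD9L was 0.10 and 0.23 against 4.46 and 4.58 (difference 4.35, SE 0.12, 20.4-fold, adjusted p = 0.000413). Neither was called in GALNT3 KO. The means of the 4 SAMD9 probes in the clones labelled GALNT3/T6 KO ran from 1.31 to 4.53. IFI27, a mitochondrial protein that is a common marker of interferon exposure, read -0.49 and -0.50 and then 3.34 and 3.59, with a difference of 3.96 (SE 0.14, 15.5-fold, adjusted p = 0.000413).

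The IFI44 pair on chromosome 1 gave the clearest exception. IFI44L, a restrainer of interferon responses, was 1.42 and 1.65 in GALNT3 KO, the largest rise of any member there (1.54, SE 0.15, 2.90-fold, adjusted p = 0.0185). In the clones labelled GALNT3/T6 KO it stood at 0.12 and 0.62, not called against Ctrl (0.37, adjusted p = 0.101) and lower than in GALNT3 KO by 1.17 (SE 0.21, adjusted p = 0.0201), so it ran opposite to most members. IFI44 was higher than Ctrl everywhere, at 0.86 and 0.47 and then 3.07 and 3.27, and was called in both groups (0.67, adjusted p = 0.0458, and 3.17, adjusted p = 0.000185). Their probes lie at 79107590 to 79107649 (IFI44L) and 79128479 to 79128538 (IFI44) of hg19. EPSTI1 was not well above background in the Ctrl channel on either array labelled GALNT3/T6 KO and was at least 3.79-fold higher than Ctrl there (adjusted p = 0.000303). On the GALNT3 KO arrays neither channel was well above background for EPSTI1, and between the KO channels of the groups the bound was at least 3.37-fold. IFI6, IFI35 and XAF1 rose by 1.87, 1.08 and 0.66 between the groups.

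**Figure D2:**
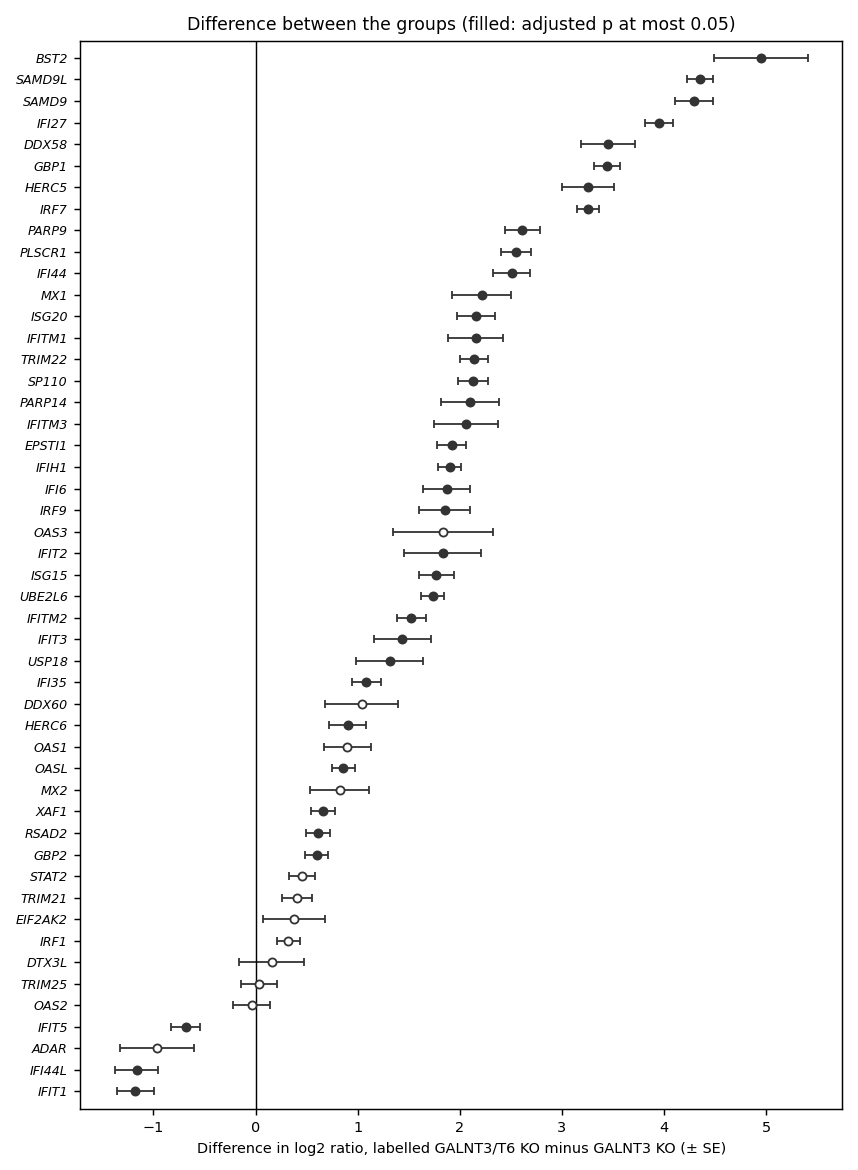
Log2 ratio of the clones labelled GALNT3/T6 KO minus that of GALNT3 KO (x axis, ± SE from limma, 2 clones a group) for each of the 49 genes in order of size. Filled points passed the adjusted test: 34 lie right of 0 with BST2 at 4.95 on top, and 3 lie left of it, namely IFIT5, IFI44L and IFIT1.

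In GALNT3 KO the called members were few and small beside those of the other group. The 9 called lower were DDX58, USP18, ISG15, PARP14, HERC5, PLSCR1, PARP9, IFITM2 and IFI27, from -1.45 to -0.49, and the 3 called higher were IFI44L, IFI44 and IRF1. With median centring in place of loess, 1 was higher and 6 lower, at 2.01% and 6.56% of all genes. Without GALNT3 KO replicate 1, 0 of the 27196 genes were called in this comparison, members included, and likewise without replicate 2. Fitted without the arrays labelled GALNT3/T6 KO, 5 members were higher and 14 lower, at 16.8% and 17.9% of all genes.

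Clones of a group agreed in direction for most members. In GALNT3 KO 21 members were above 0 in both clones, 20 below 0 in both and 8 had opposite signs, with a median gap of 0.14 between clones, as over all genes (0.14). In the clones labelled GALNT3/T6 KO, 45 were above 0 in both clones, 3 below 0 and 1 (USP18) split, with a median gap of 0.26 against 0.17 over all genes. Clone 2 of that group read higher than clone 1 in 40 of 49 members. Over all genes, these signs and this order of the clones were not counted, so an offset of a whole array cannot be told apart. The gap passed 1 log2 unit for OAS3 (1.41), IFIT2 (1.09) and DDX60 (1.05) in the clones labelled GALNT3/T6 KO, and for BST2 (1.31) in GALNT3 KO. For 41 members both clones of the labelled double KO exceeded both of GALNT3 KO, and for 4 both were below, patterns also met by 8164 and 8422 of the 27196 genes tested.

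The Ctrl channel was not level between the groups of arrays for some members. After loess and Aquantile normalization, the Ctrl log2 signal of IFI27 was 8.22 and 8.19 on the GALNT3 KO arrays and 12.82 and 12.55 in the clones labelled GALNT3/T6 KO. For IRF7 the Ctrl signals were 7.96 and 7.50 and then 10.71 and 11.74, and for BST2 10.27 and 10.26 and then 12.82 and 11.76. ISG20, MX1, IFITM1, TRIM22 and PARP9 also read 0.76 to 1.47 higher in Ctrl on the latter arrays, whereas over the members the median shift was -0.02. All 8 members named so far were called higher in the ratio over Ctrl there. The added Ctrl signal came to 6.49% to 14.6% of the KO signal in these 8 members. Of the 14 members called there with a log2 ratio over 2, 9 had a higher Ctrl signal on these arrays. The median Ctrl shift of those 14 was 0.36, against -0.08 over all genes. Taken within the KO channel alone, the groups differed by 8.43 in IFI27, 6.97 in BST2 and 6.75 in IRF7, a description that is open to dye and array effects and has no test. SAMD9, SAMD9L, GBP1 and ISG15 differed by at most 0.23 in the Ctrl channel. The study's methods name a corresponding Ctrl clone for the KO clones and do not say whether 1 Ctrl extract served all arrays, and the part of this shift in the ratios was not tested.

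**Figure D3:**
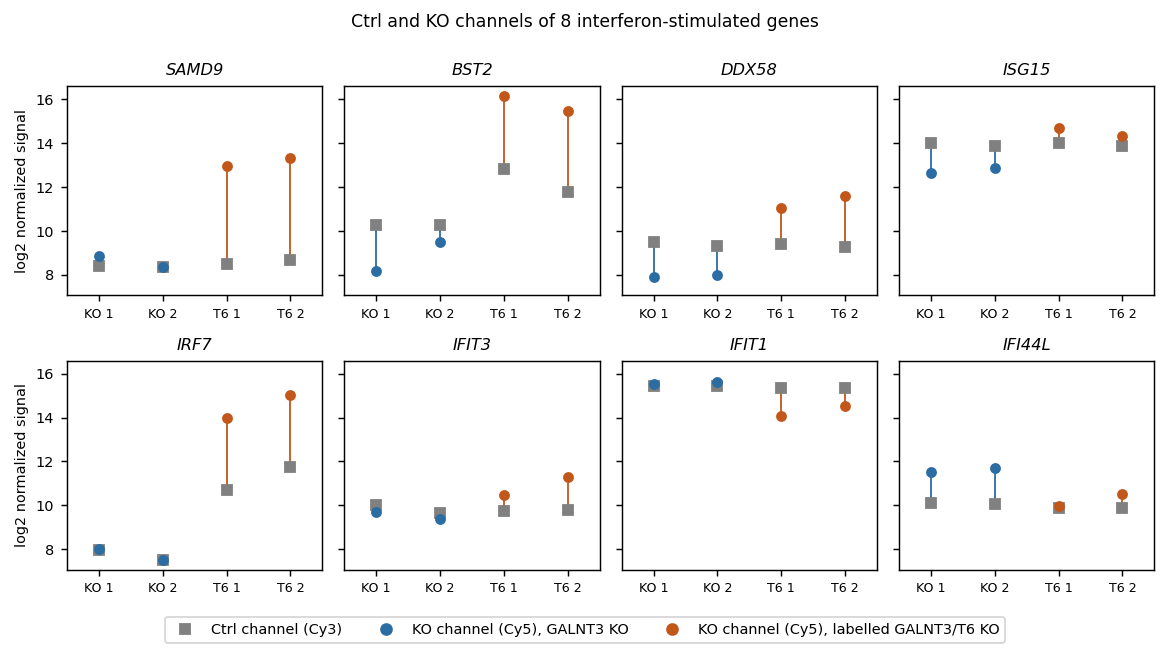
Normalized log2 signal (y axis) in the Ctrl channel (gray squares) and the KO channel (colored circles) on each array (KO 1 and KO 2, GALNT3 KO clones; T6 1 and T6 2, clones labelled GALNT3/T6 KO) for 8 members, with a line joining the channels of an array. Ctrl stays level for SAMD9, DDX58, ISG15, IFIT3, IFIT1 and IFI44L and is higher in the clones labelled GALNT3/T6 KO for BST2 and IRF7, where the KO signal reaches 14.0 or more.

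Several members were measured by more than 1 probe that passed the filter, 22 in all. In the clones labelled GALNT3/T6 KO the probe means spanned more than 1 log2 unit for SAMD9, IRF7, IRF9, DTX3L, PARP14, RSAD2, EPSTI1, XAF1 and ADAR, and differed in sign for PARP14, EIF2AK2, OAS3 and USP18. In GALNT3 KO the span passed 1 unit for PARP14 alone. Probes of GBP1, IFI27, TRIM22, IFIT5 and OAS2 lay within 0.37 of each other in the clones labelled GALNT3/T6 KO. With the mean of all passed probes 41 members were called higher there and 3 lower, at 24.8% and 24.1% of all genes.

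**Figure D4:**
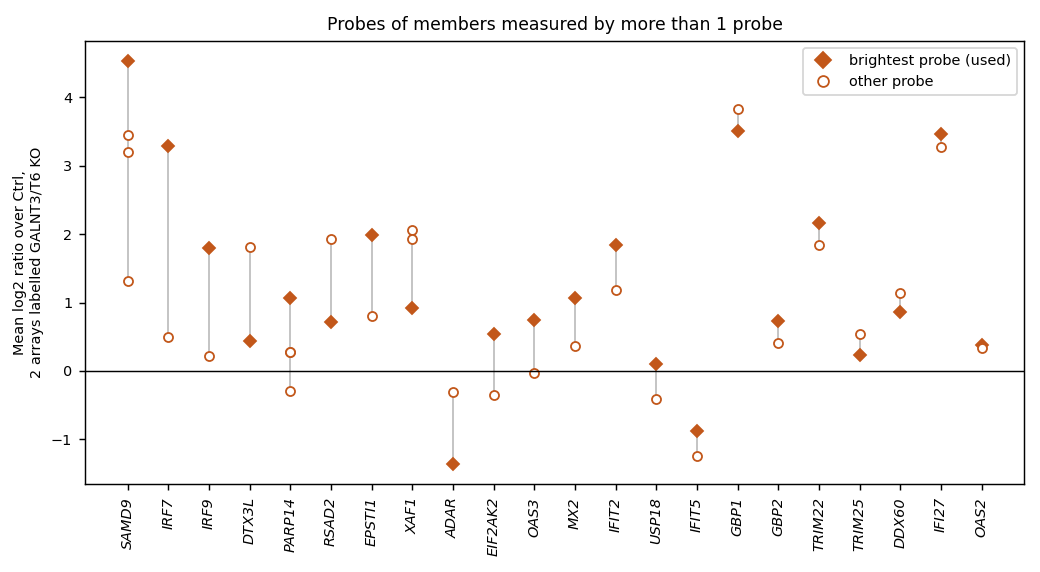
Mean log2 ratio over Ctrl in the 2 clones labelled GALNT3/T6 KO (y axis) for every passed probe of the 22 members with more than 1, in order of their spread; filled diamonds are the brightest probes, used in the tests, and open circles the others. The SAMD9 probes run from 1.31 to 4.53 and those of IRF7 from 0.49 to 3.29, while those of PARP14, EIF2AK2, OAS3 and USP18 lie on both sides of 0.

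Genes above the members in the pathway were followed as lists chosen by role. Beside the calls of each list stand the shares of all genes. These were 24.8% higher and 23.1% lower in the clones labelled GALNT3/T6 KO, and 4.79% and 6.44% in GALNT3 KO. Of 16 interferon genes on the array, 13 passed the filter, 4 were higher and 1 lower in the clones labelled GALNT3/T6 KO, and none was called in GALNT3 KO or between the groups. The calls were small: IFNA5 (0.43), IFNA2 (0.40) and IFNL1 (0.29) were higher, IFNE was at least 1.32-fold higher with Ctrl not well above background, IFNA21 (-0.28) was lower, and IFNB1 read -0.08 (adjusted p = 0.45). IFNG did not pass the filter. Interferon alpha genes are near-identical copies, and their probes may share signal. Of 6 receptor chains, IFNGR1, the ligand-binding chain for interferon gamma, was higher (2.54, SE 0.18, adjusted p = 0.000676), while IFNAR1 (-0.31) and IFNAR2 (-0.35), the receptor of type I interferons, were not called.

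Among receptor kinases and STATs, JAK1 (0.86) and STAT3 (0.73) were higher and JAK2 (-0.38) and TYK2 (-0.78) lower in the clones labelled GALNT3/T6 KO. JAK1 also differed between the groups, by 1.06. Of 14 upstream sensors, adaptors and kinases, 7 were higher and 3 lower there. The shares of all genes called there, 24.8% higher and 23.1% lower, stand beside the calls of both lists and of the negative regulators below. IFI16, a DNA sensor, was 5.24 (SE 0.08, adjusted p = 9.08e-05), the adaptor TMEM173 (STING) 2.55, the helicase DHX58 1.76, MYD88 1.15 and MB21D1 (cGAS) 0.66, and AIM2 was at least 1.34-fold higher with Ctrl not well above background. MAVS, the adaptor of DDX58 and IFIH1, was the only one of these called in GALNT3 KO, and it stood at 0.61 there and 0.63 on the other arrays. TRAF3 (-2.06), IKBKE (-0.71) and IRF3 (-0.71), which act between the adaptors and interferon transcription, were lower in the clones labelled GALNT3/T6 KO. Of 5 negative regulators, SOCS3 (1.56) and PTPN2 (0.50) were higher and PTPN6 (-0.61) lower there, and PTPN2 (-0.45) and PIAS1 (-0.42) were lower in GALNT3 KO.

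**Figure D5:**
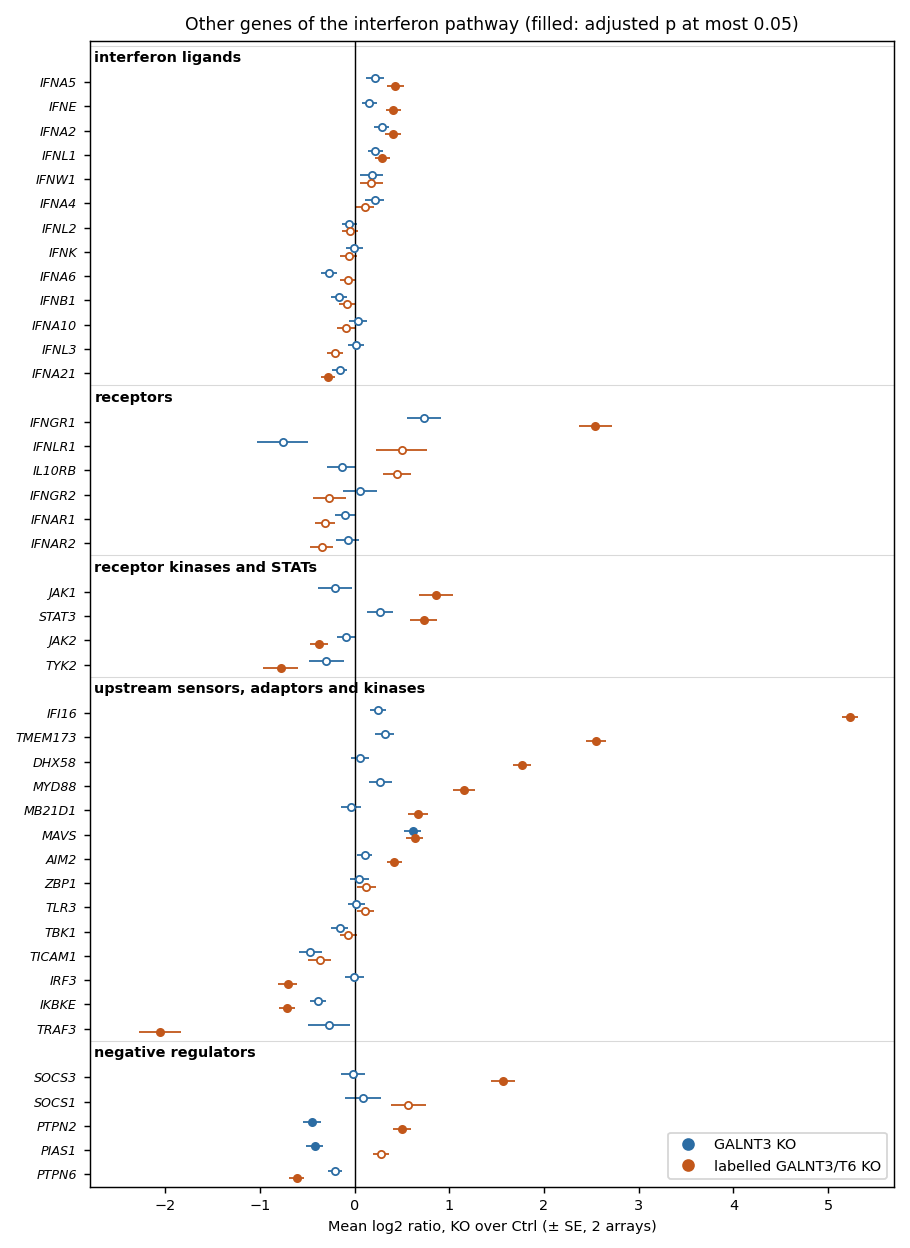
Mean log2 ratio of KO over Ctrl (x axis, ± SE from limma, 2 clones a group) for interferons, receptors, receptor kinases and STATs, upstream sensors and adaptors, and negative regulators, in GALNT3 KO (blue) and in the group labelled GALNT3/T6 KO (orange). Filled points were called: IFI16 at 5.24, TMEM173 at 2.55 and IFNGR1 at 2.54 lie far right, TRAF3 at -2.06 far left, and the interferon genes lie between -0.28 and 0.43.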

How the data were processed

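Each array compared KO RNA (Cy5) with Ctrl RNA (Cy3). The authors deposited scanner intensities per spot and a log10 ratio, made with Agilent Feature Extraction (version 8.5.1.1 per the submitters' processing notes). The deposited value table, also per array, was used only as an alternative. From the intensities, background was corrected with normexp (offset 50) and each array was loess-normalized with limma 3.58.1 in R 4.3.3, without control spots. Probes had to be well above background on both arrays of either group, in Cy3 or Cy5, and the brightest such probe stood for its gene. Linear models with a mean per group were fitted to 27196 genes over all 4 arrays, moderated with eBayes, and p-values were adjusted by Benjamini-Hochberg over all genes. Across arrays and channels, 86.9% to 93.8% of probes were well above background and none was saturated. All arrays shared 1 slide and 1 scan. Where a channel was not well above background on both arrays of a group, the bright mean was set against the higher of the dim probe and the lowest signal well above background, after loess and Aquantile, which is open to dye bias without dye swaps.

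Members, pathway lists and marker lists were chosen with earlier results of these data known. Values on every array are given for sensors, transcription factors, the 10 largest group differences, members called in GALNT3 KO or called lower, and members whose clones differ by more than 1 log2 unit. Alternatives changed the background correction, normalization, source of the ratios, filter, probe, spread, block, threshold, test, naming of probes and replicates. The fit was tested on simulated data. Each array held a different clone by its label, so p-values measure the spread between the arrays of these clones. The labels do not say whether the clones were grown and extracted separately. Probe positions are on hg19 per the file annotation, and promoters are from RefSeq on GRCh38.p14. Some genes of the pathway and marker lists are not reported here.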

Additional observations from a re-analysis of the deposited data

Results flagged for a closer look

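The difference between the groups itself passed limma's test (adjusted p at most 0.05) in 37 members, given here as the log2 ratio in the clones labelled GALNT3/T6 KO minus that in GALNT3 KO. Sensors were DDX58 (3.45) and IFIH1 (1.90), and OASL (0.86), which enhances DDX58 signaling, differed too. Nuclear factors were IRF7 (3.26), SP110 (2.13) and IRF9 (1.85). For IRF7 and IRF9 the value is that of the brighter of 2 probes, and on the second IRF9 probe the groups overlapped. RNA-binding effectors were ISG20 (2.16), IFIT2 (1.83), IFIT3 (1.44), RSAD2 (0.62), IFIT5 (-0.69) and IFIT1 (-1.18). In the ISG15 system HERC5 (3.26), ISG15 (1.77), UBE2L6 (1.73), USP18 (1.31) and HERC6 (0.90) differed. The GTPases were GBP1 (3.44), MX1 (2.21) and GBP2 (0.60). Membrane effectors were BST2 (4.95), PLSCR1 (2.55), IFITM1 (2.16), IFITM3 (2.06) and IFITM2 (1.53). PARP9 (2.61), TRIM22 (2.14) and PARP14 (2.10) also differed, PARP14 on 1 of its 4 probes. The others were SAMD9L (4.35), SAMD9 (4.30), IFI27 (3.96), IFI44 (2.51), EPSTI1, IFI6 (1.87), IFI35 (1.08), XAF1 (0.66) and IFI44L (-1.17). For EPSTI1 the fitted 1.92 is not exact, since both GALNT3 KO channels and the Ctrl channel of the other group were not well above background, and what holds is a difference of at least 3.37-fold between the KO channels. Groups of 2 arrays are too small to look for a sample far from the others.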

How the results depend on the processing

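No called member value changed sign under any alternative run. Counts are members higher and lower. In GALNT3 KO they were 3 and 9, and became 1 and 6 with median centring, 1 and 3 with Agilent's log ratio and with the deposited value table, 5 and 14 with each group fitted alone, and 0 and 0 with the clone number as a replicate block. The shares of all genes moved too, from 4.79% and 6.44% to 2.01% and 6.56%, 0.724% and 1.45% (Agilent's log ratio), 16.8% and 17.9%, and 0.110% and 0.191%. With the methods' t-test the member counts were 0 and 0 after adjustment (0 of all genes). They were 1 and 1 at unadjusted p with the fold minimum (1.23% and 2.19% of all genes). In the clones labelled GALNT3/T6 KO, 39 and 3 became 0 and 0 with the adjusted t-test (0 and 1 of all genes). With the unadjusted one they were 19 and 0, at 5.34% and 6.20% of all genes. Between the groups, 34 and 3 became 1 and 0 with the adjusted t-test (24 and 9 of all genes). Unadjusted they were 30 and 2, at 9.34% and 8.95% of all genes. The cause was not tested. Leaving out 1 replicate gave 0 to 5 higher and 0 to 14 lower in GALNT3 KO, 33 to 43 and 2 to 3 in the clones labelled GALNT3/T6 KO, and 15 to 40 and 0 to 4 between the groups. Without GALNT3 KO replicate 1 the last were 15 and 0, and without GALNT3 KO replicate 2 they were 19 and 0, where 736 and 472, and 843 and 578, of all genes were called. A lone clone was assumed to vary like the other group. Over the processing alternatives and left-out replicates, without the t-test and the crossed block, 32 of the 39 higher and 2 of the 3 lower calls in the clones labelled GALNT3/T6 KO were kept, 15 of 34 and 0 of 3 between the groups, and none in GALNT3 KO. The replicate block gave 38 and 3 in the clones labelled GALNT3/T6 KO, at 18.2% and 18.9% of all genes. Between the groups it gave 31 and 2, at 9.33% and 8.13% of all genes. Clone numbers did not pair the arrays (correlation of replicate differences -0.24 over 27196 genes). A crossed block, chosen after seeing the data, gave 3 and 9, 40 and 3, and 34 and 4. The shares of all genes with it were 5.35% and 8.17%, 25.4% and 24.4%, and 13.0% and 13.9%. A slide block was not run, since all arrays share 1 slide. Signal over background limits EPSTI1 and, in GALNT3 KO, PARP14.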
